A study of Mus musculus with 5 samples.

Results

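The genes followed here are 9 chemokine receptors of mouse CD4 T cells: Ccr2, Ccr4, Ccr6, Ccr7, Cxcr1, Cxcr3, Cxcr4, Cxcr5 and Cxcr6. They were found on the arrays by the RefSeq accession that each probe carries, and 10 probes matched the 9 genes, out of 28325 named probes for 21366 genes. Cxcr6 had 2 probes and each of the others had 1. Every one of the 10 probes was a single spot on each array.

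The data came from 5 cultures of C57BL/6 cells, all started from naive CD4 T cells of the spleen and all given IL-2 and an antibody that blocks IL-4. For the Th1 culture, the cells were stimulated through CD3 and CD28 for 4 days in the presence of IL-12. For the iTreg culture, they received the same receptor stimulation for 4 days with TGF-beta while IFN-gamma was also blocked. The culture named Th1+TGFb was made from Th1 cells that spent 4 more days in that iTreg medium, 8 days in all. The rested culture was made from Th1 cells kept for 4 days with IL-2 and both blocking antibodies but without stimulation, also 8 days in all. The Th1reg culture was made from rested cells that then spent 4 days in the iTreg medium, 12 days in all. The labels give the aim only as profiling CD4 T cells after different cultures. Each culture had 1 array, so there was no spread between samples, no test and no p-value, and every difference below is between 2 single arrays. The sources used here do not say whether cells of several mice were pooled, nor how old the mice were. In bulk RNA, fewer cells with a transcript and less transcript per cell cannot be told apart.

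Chemokine receptors are membrane receptors that couple to inhibitory G proteins and steer cells along gradients of small secreted proteins, the chemokines. Naive T cells use CCR7 to enter lymph nodes, and effector cells gain receptors for inflamed tissue. Th1 cells are known for CXCR3 and CXCR6, Th17 cells for CCR6, Th2 cells, skin-homing T cells and many regulatory T cells for CCR4, and follicular helper T cells for CXCR5.

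The level of a probe is given as a scaled log2 signal, the log2 of its processed signal minus that of the 75th percentile of signal on the same array, which ran from 144 (rested) to 306 (Th1reg). A signal without the scanner software's mark for well above background, called dim here, has only an upper bound. The lowest signal that was well above background lay between -3.96 (Th1reg) and -3.23 (rested) on the scaled log2 scale, and a fold against a dim array is computed against that value and written as at least N-fold. Such a bound holds for the main processing only. The software's own error of a member's signal was 0.14 log2 units for bright spots and 1.45 for the dimmest. Probes with repeat spots had a median SD of 0.0443 to 0.0491 log2 units in the brightest class of signals and of 0.164 to 0.201 in the dimmest. Both describe 1 array and hold nothing of the variation between cultures. A difference of at least 1 log2 unit, which is 2-fold, was counted as higher or lower. All 8 T cell markers examined, Cd4 and Cd3e among them, were well above background on all 5 arrays. Their levels were not even, since in iTreg against Th1 5 of the 8 were lower and 1 higher (median -1.32 log2 units). Over all genes 17.8% were lower and 10.8% higher there.

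All 9 receptors were well above background on at least 1 array, while 34.2% of all genes measured were so on none. The receptors were chosen with earlier results of these data known, so such counts cannot speak for the family. Of them 5 were so on all 5 arrays, as were 50.2% of all genes measured. Cxcr1 and Cxcr4 were dim on 1 array each, while Ccr2 and Cxcr5 were well above background on only 2. The number detected per array was 7 in iTreg, 7 in Th1, 8 in rested, 8 in Th1+TGFb and 7 in Th1reg. Of all spots without controls, 45.7% (Th1) to 48.7% (iTreg) were well above background. Over the 5 cultures the receptors spanned very different ranges, from 1.86-fold for Ccr7 to 318-fold for Cxcr1.

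**Figure D1:**
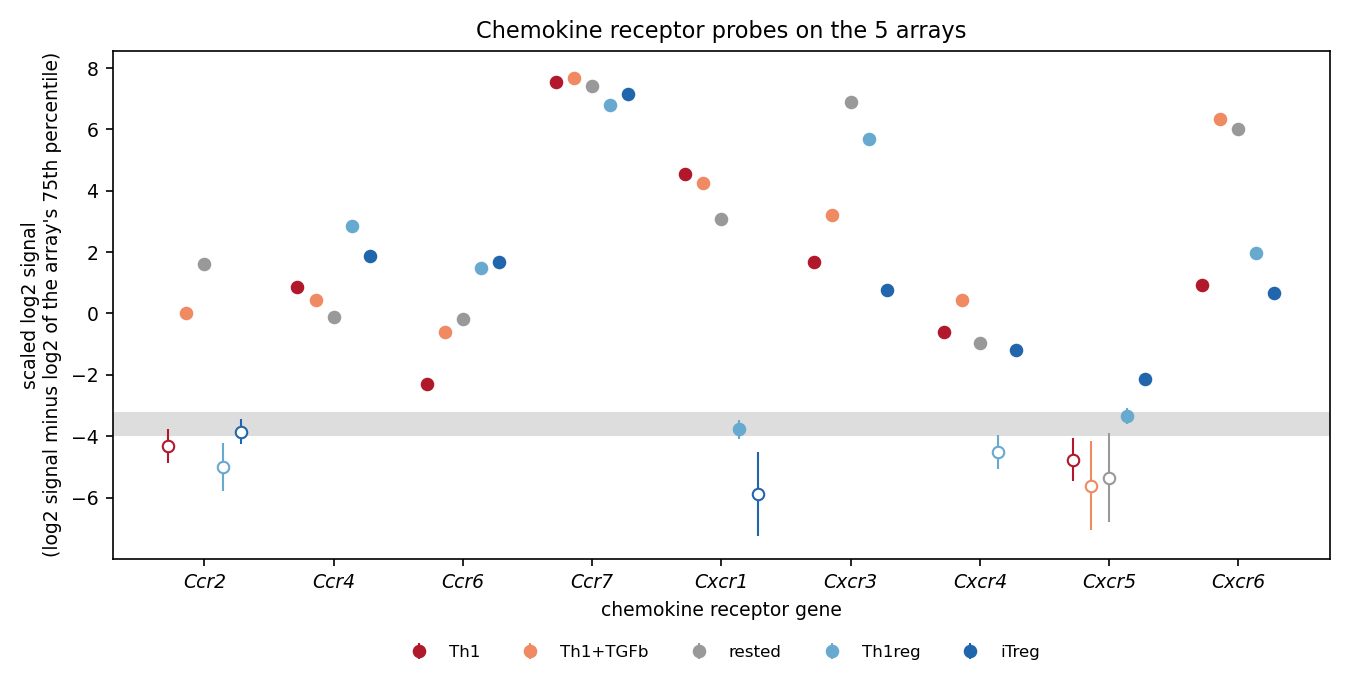
Scaled log2 signal of the 9 receptor genes (horizontal axis) on the 5 arrays, 1 point per array; bars are the software's own error of the spot, open points were not well above background, and the grey band holds the arrays' lowest signals well above background. Ccr7 lies between 6.78 and 7.67 on every array, while Cxcr1 and Ccr2 run from clear signals down into the band or below it.

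Cxcr6, the receptor for the membrane-bound chemokine CXCL16 and a mark of effector cells that reside in tissue, was high in rested and Th1+TGFb. Its scaled log2 signal was 0.68 in iTreg, 0.93 in Th1, 6.00 in rested, 6.33 in Th1+TGFb and 1.96 in Th1reg. The Th1+TGFb and rested arrays stood far above the other 3 and differed from each other by less than 2 software errors, as did Th1 and iTreg. The second probe of the gene gave -0.67, -0.12, 4.97, 5.35 and 0.98 in the same order. Relative to Th1, Cxcr6 was 42.2-fold higher in Th1+TGFb (44.4-fold by the second probe) and 33.7-fold higher in rested (34.0-fold). In Th1reg it was 16.4-fold lower than in rested and 20.6-fold lower than in Th1+TGFb, and 2.05-fold higher than in Th1.

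Ccr2, the receptor for CCL2 on monocytes and on memory and effector T cells, was likewise high in rested and Th1+TGFb. Its scaled log2 signal was 0.03 in Th1+TGFb and 1.62 in rested, and the probe was not well above background in Th1 (-4.32), Th1reg (-5.00) or iTreg (-3.85). The rested array was therefore the highest, by 1.59 log2 units over Th1+TGFb, and the other 3 have no order among them. Ccr2 was at least 38.6-fold higher in rested and at least 12.8-fold higher in Th1+TGFb than in Th1. In Th1reg it was at least 47.8-fold lower than in rested and at least 15.9-fold lower than in Th1+TGFb. After another background correction these differences came to 3.09, 1.87, -3.45 and -2.23 log2 units, in that order. Since monocytes also carry Ccr2, the 6 markers of monocytes and macrophages are given beside it. Their summed signal, in multiples of the array's 75th percentile, was 96.5 in iTreg, 92.8 in Th1, 460 in rested, 249 in Th1+TGFb and 49.4 in Th1reg. Nearly all of it came from the probe of Itgam, at 6.58, 6.52, 8.84, 7.95 and 5.60 in that order, and what this bright probe reports is uncertain, since Lyz2 and Fcgr1 were dim on every array. Of the other 3, Csf1r lay between -1.44 and 0.06, Cd14 was well above background in rested (-2.44), Th1+TGFb (-1.88) and Th1reg (-2.48), and Adgre1 only in rested (-2.75). Among 4 dendritic cell markers, Itgax was well above background only in rested (-2.30) and Th1+TGFb (-3.06), the cultures with Ccr2, while Flt3 was dim on every array and Zbtb46 was well above background in Th1+TGFb (-2.41), Th1reg (-2.63) and iTreg (-3.30). The summed signal of these 4, which ran from 195 in Th1reg to 698 in rested, came almost wholly from the Siglech probe, bright on all 5 arrays and as uncertain as that of Itgam. The part of these markers in the Ccr2 result was not tested.

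Ccr2 and Cxcr6 lie on the same chromosome, 9, where receptor genes sit in a row, in the order Ccr9, Cxcr6, Xcr1, Ccr1, Ccr3 and Ccr2. Between Cxcr6 and Ccr2 lie Xcr1 and Ccr1, dim on every array, and Ccr3, the eotaxin receptor, which had -1.88 in Th1+TGFb and -2.72 in Th1 and was dim on the other 3. Neighbours in the row thus did not all share a profile. The 250 bases before the RefSeq start site (build GRCm38.p6) are shown for this pair, high in the same cultures, from chr9:123806227-123806476 (plus strand) for Cxcr6 and chr9:124101933-124102182 (plus strand) for Ccr2, 5′ to 3′. Capitals mark TGTGGT or its reverse complement ACCACA, the core letters of sites bound by RUNX factors.
Cxcr6: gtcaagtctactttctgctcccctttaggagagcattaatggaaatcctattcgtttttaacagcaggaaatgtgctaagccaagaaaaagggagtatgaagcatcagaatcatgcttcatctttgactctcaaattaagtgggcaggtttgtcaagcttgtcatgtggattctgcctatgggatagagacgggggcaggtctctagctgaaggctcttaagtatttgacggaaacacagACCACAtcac
Ccr2: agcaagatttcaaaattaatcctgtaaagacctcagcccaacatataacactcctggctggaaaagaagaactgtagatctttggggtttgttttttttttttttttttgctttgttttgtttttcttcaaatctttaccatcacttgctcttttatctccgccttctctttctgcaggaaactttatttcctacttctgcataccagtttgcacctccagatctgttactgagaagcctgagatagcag
Cxcr6 held 1 such match, beginning 10 bases before the start site, and Ccr2 held none. Of 32851 windows of this length before start sites, 14.0% held the core on either strand.

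Cxcr3, the receptor for the interferon-induced chemokines CXCL9, CXCL10 and CXCL11, is a target of T-bet and a classical Th1 mark. Its scaled log2 signal was 0.78 in iTreg, 1.69 in Th1, 6.88 in rested, 3.20 in Th1+TGFb and 5.67 in Th1reg. Rested and Th1reg stood high, Th1+TGFb lay between, and Th1 was closer to iTreg than to the cultures derived from it. Every neighbouring pair in the order of levels differed by more than 2 software errors. Cxcr3 was 36.4-fold higher in rested than in Th1 and 2.83-fold higher in Th1+TGFb. In Th1reg it was 29.7-fold higher than in iTreg, 15.7-fold higher than in Th1, 5.54-fold higher than in Th1+TGFb and 2.32-fold lower than in rested. The last of these turned to 0.27 log2 units higher when arrays were scaled by spike-in RNA.

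Cxcr1, known from neutrophils as a receptor for CXC chemokines such as CXCL5, had the widest range. On the scaled log2 scale Th1 had 4.53, Th1+TGFb 4.25, rested 3.07 and Th1reg -3.78, and the probe was dim in iTreg (-5.88). The processed signal itself was 4.59 in iTreg, 5537 in Th1, 1213 in rested, 3779 in Th1+TGFb and 22.3 in Th1reg. Th1 and Th1+TGFb did not differ beyond 2 software errors, rested was lower, and the Th1reg signal lay only 1.14-fold above the lowest detected signal of its array. In Th1reg, Cxcr1 was thus 318-fold lower than in Th1, 261-fold lower than in Th1+TGFb and 115-fold lower than in rested, all imprecise because of that dim signal. These were -8.31, -8.03 and -6.85 log2 units, and came to -6.36, -6.00 and -4.78 after another background correction. The iTreg signal was lower than that of Th1 by at least 294-fold. After another background correction this difference came to -6.58 log2 units in place of -8.20. No direction between Th1reg and iTreg could be had. Cxcr2, the adjacent gene and a receptor for related chemokines, had 1.11 in Th1, -0.38 in rested and -0.30 in Th1+TGFb and was dim in both Th1reg and iTreg. As neutrophils carry both genes, the other 6 neutrophil markers of the list are given here. S100a8, S100a9, Mpo and Retnlg were dim on all 5 arrays. Elane lay between -1.91 and -1.02, and Csf3r was at 8.59 in iTreg, 7.66 in Th1, 9.17 in rested, 8.64 in Th1+TGFb and 7.25 in Th1reg, and what this bright probe reports is uncertain beside the dim markers. With Cxcr2 included, the summed signal of the list, almost wholly that of the Csf3r probe, was 386 in iTreg, 204 in Th1, 575 in rested, 400 in Th1+TGFb and 152 in Th1reg.

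Both genes with the widest measured ranges, Cxcr1 and Cxcr3, also held the RUNX core in this stretch, from chr1:74194632-74194881 and chrX:101734148-101734397 (both minus strand, GRCm38.p6). They are shown with the core in capitals.
Cxcr1: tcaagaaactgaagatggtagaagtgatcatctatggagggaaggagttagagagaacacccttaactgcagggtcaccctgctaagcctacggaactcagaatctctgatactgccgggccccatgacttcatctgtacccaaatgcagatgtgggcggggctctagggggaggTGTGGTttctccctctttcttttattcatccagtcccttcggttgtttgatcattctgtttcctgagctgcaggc
Cxcr3: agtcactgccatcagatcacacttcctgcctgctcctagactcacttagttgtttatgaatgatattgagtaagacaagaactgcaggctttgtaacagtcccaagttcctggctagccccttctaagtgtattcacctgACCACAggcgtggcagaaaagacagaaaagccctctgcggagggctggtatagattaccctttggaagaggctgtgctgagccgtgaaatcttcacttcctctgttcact
The match began 75 bases before the start site in Cxcr1 and 110 bases before it in Cxcr3. In all, 3 of the 7 receptors with a sequence in the RefSeq table held the core, and those 7 had 8 windows because Ccr6 has 2 start sites. Letters of 5 other motifs were searched on both strands. The T-box core TCACACC and the SMAD palindrome GTCTAGAC were in none of the 8 windows, against 3.33% and 0.167% of all windows. The STAT motif TTCNNNGAA was in 1, with 2 matches before a start site of Ccr6, against 7.02%. The NFAT core GGAAA was in 7, against 55.6%, and in Ccr6 one of its matches overlapped a STAT match. The KLF core CACCC was in 3, against 52.0%. These are matches of letters in short windows and not measured sites. No link between a motif and the level or range of a receptor was tested.

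**Figure D2:**
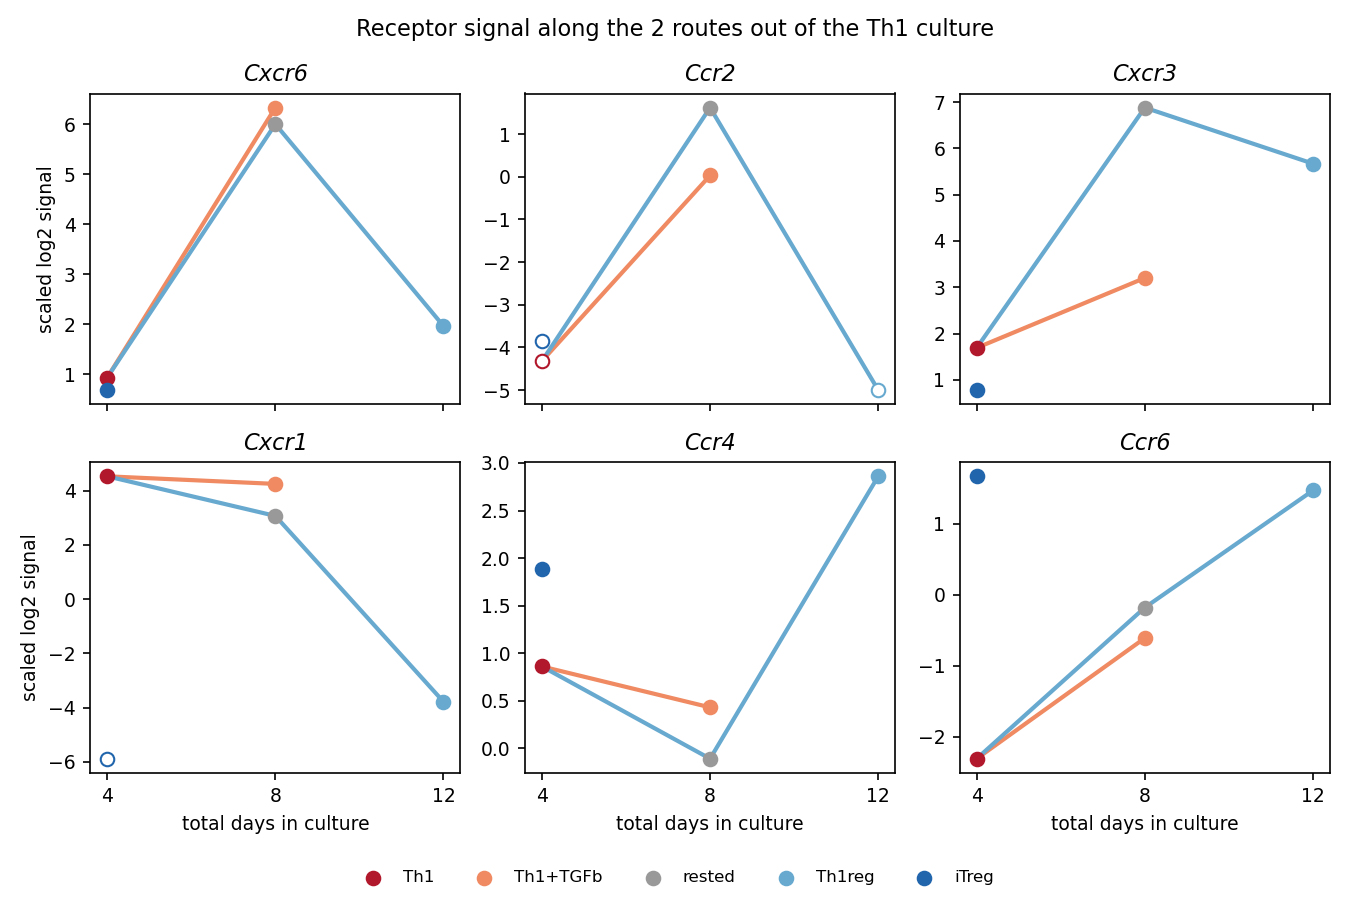
Scaled log2 signal of 6 receptors against total days in culture, with 1 point per array; the orange line joins Th1 to Th1+TGFb, the blue line joins Th1 to rested and Th1reg, iTreg stands alone at 4 days, and open points were not well above background. Cxcr6 and Ccr2 are high at 8 days on both lines and low in Th1reg at 12 days, whereas Cxcr3 is 5.67 in Th1reg and Ccr4 and Ccr6 are at their highest on these lines in Th1reg. Total days rise with the number of culture steps, and days and steps cannot be told apart.

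Ccr4 and Ccr6 were both higher in Th1reg and iTreg than in the other 3 cultures. Ccr4, which binds CCL17 and CCL22, had scaled log2 signals of 1.88 in iTreg, 0.86 in Th1, -0.11 in rested, 0.43 in Th1+TGFb and 2.86 in Th1reg. Th1reg was the highest and rested the lowest, with each step between neighbours larger than 2 software errors. Ccr4 was 7.82-fold higher in Th1reg than in rested, 5.40-fold higher than in Th1+TGFb and 3.99-fold higher than in Th1. The iTreg level exceeded that of Th1 by 2.02-fold, at the 2-fold limit, and by 0.98 log2 units in the authors' deposited value table. Ccr6, the receptor for CCL20, had 1.67 in iTreg, -2.31 in Th1, -0.18 in rested, -0.61 in Th1+TGFb and 1.47 in Th1reg. Th1reg and iTreg did not differ beyond 2 software errors, and Th1 was the lowest of the 5. Relative to Th1, Ccr6 was 15.8-fold higher in iTreg, 13.8-fold higher in Th1reg, 4.40-fold higher in rested and 3.25-fold higher in Th1+TGFb. It was also 3.14-fold higher in Th1reg than in rested. B cells carry Ccr6 as well, and of 7 B cell markers Cd79a and Pax5 were among those dim on every array. The summed signal of the 7 was 2.63 in iTreg, 1.33 in Th1, 5.70 in rested, 3.06 in Th1+TGFb and 1.11 in Th1reg. Against Th1, 4 of the 4 that could be compared were higher in rested (median 2.13 log2 units), 3 of 3 in Th1+TGFb (median 1.53), 2 of 4 in iTreg (median 1.21) and 1 of 4 in Th1reg (median -0.50). Cd79b was at least 10.6-fold higher in iTreg, at least 7.53-fold in rested and at least 1.59 log2 units in Th1reg, and dim in both Th1 and Th1+TGFb. The part of these markers in the Ccr6 result was not tested. The 4.40-fold and 3.25-fold values of Ccr6 came to less than 2-fold under 1 other processing choice each.

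Of the receptors of lymphoid traffic, Ccr7 varied the least, Cxcr4 was dim in Th1reg and Cxcr5 was dim on 3 arrays. Ccr7, which guides cells into lymph nodes toward CCL19 and CCL21, was bright on every array, with scaled log2 signals of 7.14 in iTreg, 7.53 in Th1, 7.42 in rested, 7.67 in Th1+TGFb and 6.78 in Th1reg. No neighbouring pair in the order differed by more than 2 software errors, and no comparison reached 2-fold with the main scaling. Scaling alone moved it past 2-fold in 3 comparisons: rested against Th1 was -1.29 log2 units with spike-ins, Th1reg against rested came to -1.15 if detected probes alone set the 75th percentile and to 0.84 with spike-ins, and Th1reg against Th1+TGFb was -1.12 with that percentile and -1.07 with the median of detected probes. Rested against Th1 also turned to 0.41 with the percentile of detected probes. The widest gap, between Th1+TGFb and Th1reg, was 1.86-fold. Cxcr4, the receptor for CXCL12, had 0.43 in Th1+TGFb, -0.61 in Th1, -0.97 in rested and -1.18 in iTreg, and its probe was dim in Th1reg (-4.52). Th1 and rested differed by less than 2 software errors, as did rested and iTreg, while Th1+TGFb lay above Th1 by more than that. Th1 and iTreg differed by 0.57 log2 units, with a software error of 0.22. In Th1reg, Cxcr4 was at least 21.0-fold lower than in Th1+TGFb, at least 10.2-fold lower than in Th1, at least 7.98-fold lower than in rested and at least 6.88-fold lower than in iTreg. After another background correction these came to -2.54, -1.74, -1.65 and -1.38 log2 units, in that order. Cxcr5, which leads follicular helper T cells to B cell follicles, was well above background only in Th1reg (-3.34) and iTreg (-2.15), with processed signals of 30.2 and 61.2. Its iTreg level exceeded that of Th1 by at least 2.85-fold and that of Th1reg by 2.29-fold. Both calls were under 2-fold after another background correction.

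The comparisons differed in how many receptors lay at least 2-fold apart, and since they reuse the same 5 arrays their counts are not independent. Of 8 receptors that could be compared between iTreg and Th1, 3 were higher in iTreg (Ccr4, Ccr6 and Cxcr5) and 1 lower (Cxcr1), while 28.6% of the 13155 genes compared were 2-fold apart, 10.8% higher and 17.8% lower. Between rested and Th1, 4 of 8 were higher in rested (Ccr2, Ccr6, Cxcr3 and Cxcr6) and 1 lower (Cxcr1), against 44.2% of all genes, 17.5% higher and 26.7% lower. Their median difference was 1.02 log2 units, and that of all genes -0.29. With spike-in scaling 3 receptors were higher and 4 lower, where 583 of all genes were higher and 8705 lower. With the 75th percentile of detected probes 4 receptors were higher and 0 lower, where 3647 of all genes were higher and 1939 lower. Between Th1+TGFb and Th1, 5 of 8 were higher (Ccr2, Ccr6, Cxcr3, Cxcr4 and Cxcr6) and 0 lower, against 19.1% of all genes, 11.3% higher and 7.80% lower. The median was 1.27 over the receptors and -0.20 over all genes. The Cxcr4 difference of 1.04 log2 units lay at the limit and came to 0.69 with spike-in scaling. The count of 5 in 8 equalled that in rested against Th1, where the share over all genes was larger, and neither was tested.

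Th1reg was compared with each of the other cultures. Against rested, 2 of 9 receptors were higher (Ccr4 and Ccr6) and 5 lower (Ccr2, Cxcr1, Cxcr3, Cxcr4 and Cxcr6), with 47.7% of all genes apart (27.7% higher, 20.0% lower) and medians of -1.21 over the receptors and 0.29 over all genes. Spike-in scaling gave 3 higher and 4 lower, where 9600 of all genes were higher and 715 lower. Against Th1+TGFb, 3 of 9 were higher (Ccr4, Ccr6 and Cxcr3) and 4 lower (Ccr2, Cxcr1, Cxcr4 and Cxcr6), with 27.5% of all genes apart (12.3% higher, 15.1% lower). Against iTreg, 2 of 8 were higher (Cxcr3 and Cxcr6) and 2 lower (Cxcr4 and Cxcr5), with 27.9% of all genes apart (15.8% higher, 12.1% lower). With the 75th percentile of detected probes 1 was higher and 2 lower, where 1099 of all genes were higher and 2439 lower. Against the original Th1 culture, 4 of 8 were higher (Ccr4, Ccr6, Cxcr3 and Cxcr6) and 2 lower (Cxcr1 and Cxcr4), with 14.9% of all genes apart (6.29% higher, 8.57% lower). The median of all genes moved by up to 1.48 log2 units between the main scaling and spike-ins, in Th1reg against rested, and by -1.18 in rested against Th1.

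**Figure D3:**
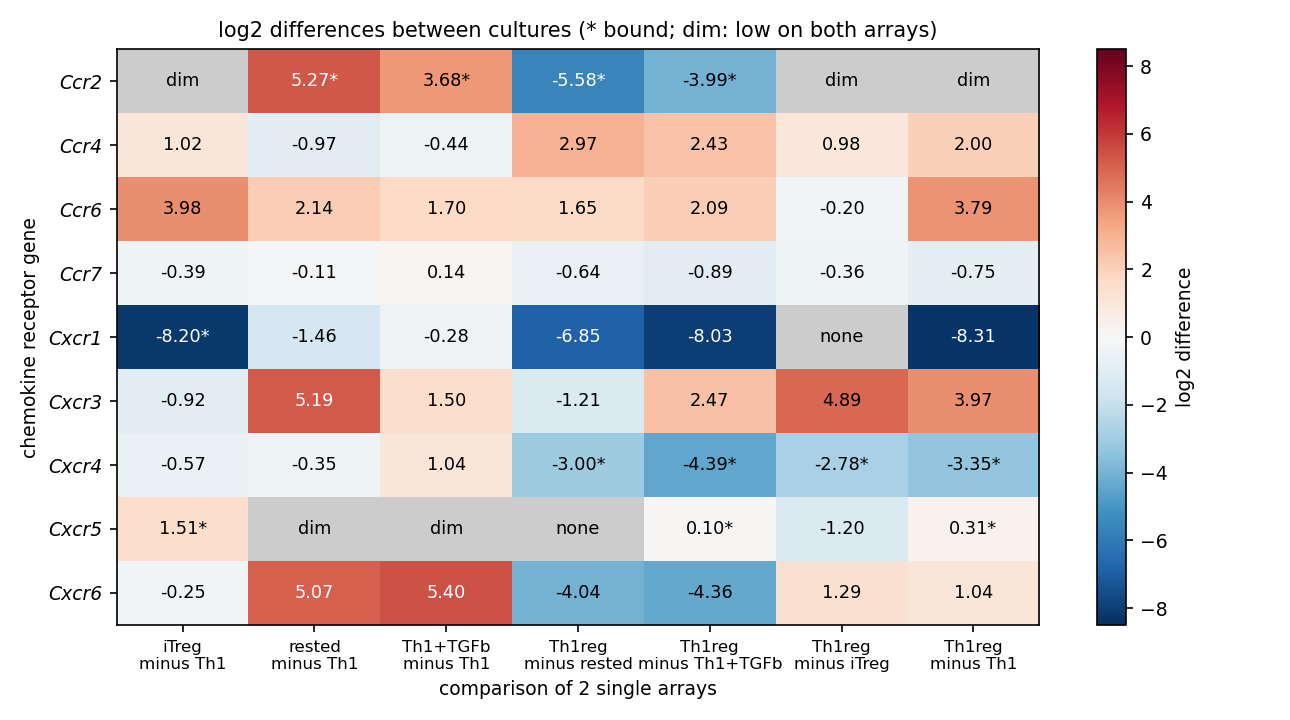
log2 difference of each receptor (rows) in the 7 comparisons of single arrays (columns); red is higher in the culture named first, a star marks a bound, "dim" a probe below background on both arrays and "none" a pair with no direction. The Ccr7 row stays between -0.89 and 0.14, and Cxcr6 goes from 5.40 in Th1+TGFb against Th1 to -4.36 in Th1reg against Th1+TGFb.

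The 14 other receptors of the family were read as a list. Of them 6 were dim on every array: Ccr1, Xcr1 and the atypical receptors Ackr1, Ackr2, Ackr3 and Ackr4. Of the 6 that could be compared between Th1reg and Th1, 2 were at least 2-fold higher in Th1reg and 3 lower, against 14.9% of all genes apart. Ccr8, a receptor found on regulatory T cells, was 20.2-fold higher in Th1reg, and Cx3cr1, the fractalkine receptor, at least 14.1-fold higher. Cxcr2 was at least 33.7-fold lower. Between Th1reg and iTreg, Cx3cr1 was 3.71-fold lower in Th1reg. Ccr9, which draws cells to the small intestine, was at least 6.83-fold higher in Th1+TGFb and at least 4.92-fold higher in rested than in Th1.

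**Figure D4:**
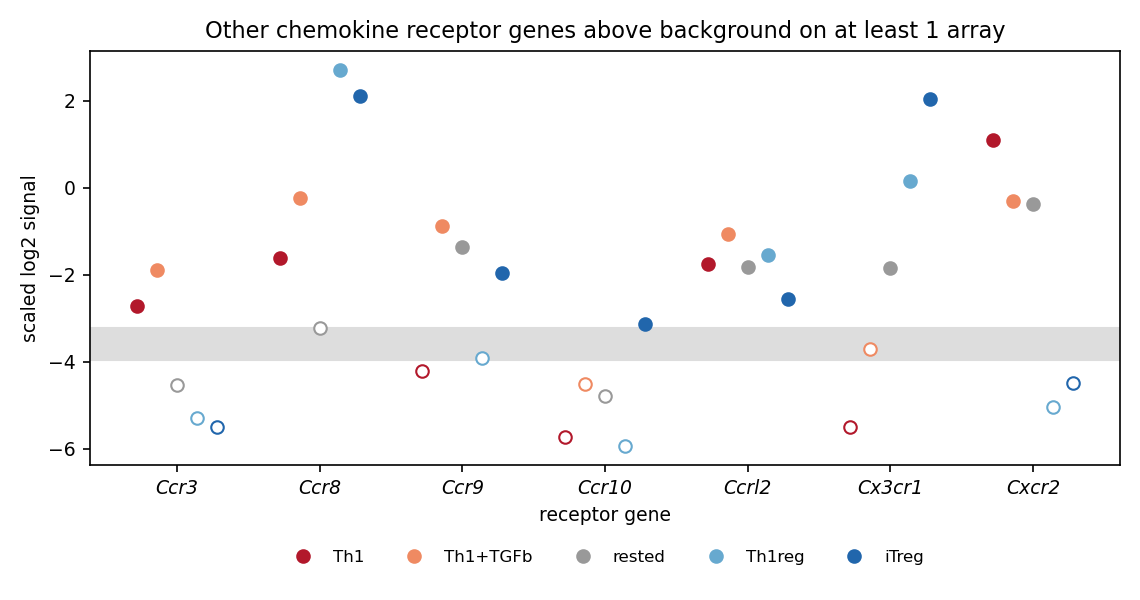
Scaled log2 signal of 7 other family members that were well above background on at least 1 array, with 1 point per culture, open where the probe was dim; the grey band holds the arrays' lowest signals well above background. Ccr8 is 2.72 in Th1reg and 2.11 in iTreg, while Cxcr2 is 1.11 in Th1 and dim in both.

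Ligands of the 9 receptors were mostly dim, with 9 of 13 measured ligand genes dim on every array. Cxcl10, an interferon-induced ligand of CXCR3, had 0.69 in Th1, -3.16 in Th1reg and -1.28 in Th1+TGFb and was dim in rested and iTreg. Cxcl9, another ligand of CXCR3, had another order, with -2.15 in rested, -2.75 in Th1+TGFb and -3.37 in Th1. It was dim in Th1reg and iTreg. Ccl17, a ligand of CCR4, was well above background only in Th1reg (-1.50), the culture with the most Ccr4. Ccl19, a ligand of CCR7, was detected in all 5, highest in rested (-0.96) and lowest in Th1reg (-3.12). Among 13 genes of receptor signalling, which include G protein subunits and the kinase subunit gene Pik3cg, 0 were 2-fold apart between Th1+TGFb and Th1, against 19.1% of all genes. In Th1reg against rested 3 were higher and 4 lower, a share near the 47.7% of all genes apart there.

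Of the genes that dampen receptor signalling, Rgs1 and Rgs16 had their lowest levels in rested. These genes, which encode proteins that speed the shutdown of G proteins, were 29.0-fold and 31.1-fold lower in rested than in Th1, and 17.2-fold and 88.5-fold higher in Th1reg than in rested. Over the 11 genes of this list that could be compared, 1 was higher and 3 lower in rested than in Th1, with a median of -0.09, where 44.2% of all genes were apart. Arrb1, which encodes the adaptor beta-arrestin 1, was 2.99-fold lower in Th1reg than in Th1.

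Transcription factors linked to these receptors had orders of their own. Tbx21, encoding T-bet, was at 0.58 in iTreg, 6.42 in Th1, 4.23 in rested, 4.71 in Th1+TGFb and 4.86 in Th1reg, so that it was 4.59-fold lower in rested than in Th1 where Cxcr3 was 36.4-fold higher. Bcl6, the factor of follicular helper cells, was at 2.90 in iTreg, 0.61 in Th1, 3.29 in rested, 3.58 in Th1+TGFb and -0.71 in Th1reg. It was 12.2-fold lower in Th1reg than in iTreg, beside the 2.29-fold lower Cxcr5. In rested and Th1+TGFb, where Bcl6 was highest, Cxcr5 was dim, so the genes did not go together over the cultures. Foxp3 was well above background in Th1reg and iTreg, the cultures that also had Cxcr5.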

How the data were processed

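The members and the gene lists were chosen with earlier results of these data known. One-colour Agilent arrays were read with Agilent Feature Extraction 10.7.1.1, per the file headers and the submitters' processing notes. The deposited processed signal is a linear intensity, which per the file headers was corrected for background and for spatial trends; arrays were not yet scaled to each other. All 5 arrays shared 1 slide and 1 scan time. Control spots and 109 to 142 outlier spots per array were left out, spots of a probe were averaged, and log2 was taken after division by the array's 75th percentile over spots. No spot was saturated. Probes were named by RefSeq accession in a GRCm38.p6 table (28331 of the probes). The array design names mm9, so that table served for names and gene order only, and promoter coordinates are those of RefSeq. For genes with several probes the brightest stood for the gene. Signals not well above background took the floor described with the results, and a comparison omitted genes that were dim on both of its arrays. Named genes were the 9 members, list genes at least 2-fold apart (at most 4 per list and comparison), and the 3 genes nearest to each member's profile; genes named as dim, neighbours and markers are outside this rule and were chosen after their values were seen. The authors' deposited value table, an intensity of unstated scale, equalled the processed signal divided by 1 constant per array for 99.7% to 99.8% of probes (within 0.01 log2 units). The 75th percentile of its column was 1.00 on every array, so it is scaled much as in the main processing. The median of its column was 0.0925 in iTreg, 0.0762 in Th1, 0.123 in rested, 0.103 in Th1+TGFb and 0.0693 in Th1reg. Some genes of the lists are not reported here. The calculation of the differences was checked on simulated signals. The number of arrays limits the precision. Python 3.11.15, pandas 2.3.3 and limma 3.58.1 were used.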

Additional observations from a re-analysis of the deposited data

Results flagged for a closer look

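Cultures given 4 days in iTreg medium can be compared with either starting culture, as Th1+TGFb against Th1 and as Th1reg against rested. In these pairs 4 receptors lay at least 2-fold apart in opposite directions. These pairs share no array, each rests on 1 array per culture, and the difference between them was not tested. Of all genes, 19.1% lay 2-fold apart in the first comparison and 47.7% in the second. How many of all genes lay apart in opposite directions was not counted, so the 4 receptors have no share to be set against. Cxcr6 was 5.40 log2 units higher after the medium from Th1 and differed by -4.04 from rested. Ccr2 was higher by at least 3.68 from Th1 and differed by -5.58, also a bound, from rested. Cxcr4 was higher by 1.04 from Th1, which came to 0.69 with spike-in scaling, and differed by -3.00, a bound, from rested. Cxcr3 was higher by 1.50 from Th1 and differed by -1.21 from rested, which turned to 0.27 with spike-in scaling. For Cxcr6, Ccr2 and Cxcr3 the rested array was itself far above Th1, as given with their levels. That difference arose without iTreg medium: 5.07 for Cxcr6, 5.27 (a bound) for Ccr2 and 5.19 for Cxcr3. The starting cultures also differed in stimulation, which Th1 had and rested lacked, and each medium culture was older than its start. An effect of the medium alone cannot be told apart from these.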

How the results depend on the processing

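With 1 array per culture no array could be left out. Each difference was recomputed under 8 other settings. Normexp was run on the median spot signal, since the planned mean spot signal was not used here. Several of the 8 could change little. Averaging all probes of a gene altered only Cxcr6, which had more than 1 probe, and keeping outlier spots barely moved any receptor. The deposited value table is scaled much as in the main processing. Leaving out the floor altered only differences with a dim array. The count of calls that stayed thus rests mainly on the 75th percentile and the median of detected probes, spike-ins and normexp. Of 38 receptor differences past 2-fold, 29 stayed past it in the same direction under all 8, and 1 changed sign, Cxcr3 in Th1reg against rested, at 0.27 with spike-ins, where the all-gene median had shifted by 1.48. Differences under 2-fold could also turn sign or pass 2-fold, as given for Ccr7; with spike-ins Ccr4 (-2.15) and Cxcr4 (-1.53) in rested against Th1 passed it, and in the deposited value table Ccr4 did so in rested against Th1 (-1.02) and Th1reg against iTreg (1.03). The counts of receptors 2-fold apart stayed within 1.5 times, except that normexp gave 3 for Th1+TGFb against Th1 in place of 5. Over all genes normexp gave 641 higher and 689 lower there, in place of 1479 and 1019. Ccr4 in iTreg against Th1 ran from 0.98 to 1.40 log2 units, and Cxcr1 in rested against Th1 from -2.64 to -0.93. No paired analysis was possible because each culture had 1 array. Signal over background limited Cxcr5, Ccr2, Cxcr4 in Th1reg and Cxcr1 in Th1reg and iTreg. The differences written as bounds were smaller with normexp, as given for Ccr2, Cxcr1 and Cxcr4. So were the folds of Cxcr1 in Th1reg against Th1, Th1+TGFb and rested.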

Other observations

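Genes of lymphocyte traffic other than chemokine receptors were read as a list of 8. S1pr1, the receptor for exit from lymph nodes, had scaled log2 signals of 2.90, 2.12, 5.05, 1.28 and 0.63 in iTreg, Th1, rested, Th1+TGFb and Th1reg, and was 21.4-fold lower in Th1reg than in rested. Of the 8 genes, 5 were lower and 0 higher in Th1reg than in rested, where 20.0% of all genes were lower and 27.7% higher. With spike-in scaling that comparison shifted by 1.48 log2 units, which takes Itga4 (-1.68), Itgb7 (-1.60) and Ly6c1 (-2.24) to under 2-fold. Ccr7 differed by -0.64 there, by -1.15 with the 75th percentile of detected probes and by 0.84 with spike-ins.

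For the 5 receptors well above background on all arrays, the nearest profiles among 10280 named genes were found by the root mean square difference over the 5 cultures, each gene centred on its mean. The nearest to Cxcr6 was the interferon-induced gene Ifitm1, at 0.69 log2 units, with 2.32 in iTreg, 3.50 in Th1, 6.57 in rested, 8.02 in Th1+TGFb and 4.22 in Th1reg, followed by Myo1f (1.04) and Ifi209 (1.13). For Cxcr3 the nearest were Cnrip1 (1.01), Eya2 (1.22) and Rundc3b (1.25). For Ccr4 they were Bclaf3 (0.25), Naf1 (0.28) and Mtfp1 (0.30), and for Ccr6 Lrig1 (0.40), Tnfrsf13c (0.42) and Cd72 (0.42). Ccr7, which varied little, had Ccng2 (0.06), Arhgap28 (0.06) and Hdac4 (0.07).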
